A study of Rattus norvegicus with 4 samples.

Results

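The genes described here are the keratins and the genes of the desmosome, 36 of the 14485 gene names with values in rat eye and retina. They were chosen by symbol alone: Krt, Dsg, Dsc or Pkp followed by a number, or Dsp, Jup, Evpl or Ppl. Dsg1b, whose number is followed by a letter, was counted in. They comprise 23 keratins and 13 desmosome genes. Both tissues came from rats of the pigmented strain Long Evans with wild-type genotype, and each library was made from the pooled RNA of 5 animals. The labels list 2 technical replicates for each of the 2 tissues, and 1 column of values per tissue was analysed, called the eye library and the retina library. No treatment, age or sex was used, and both groups share strain and genotype. The tissue labels and titles separate eye from retina, although the description attached to each of the 4 samples speaks of retina mRNA. With 1 pool per tissue there is no replicate check, so no difference here has a p-value.

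Keratins are the intermediate filament proteins of epithelial cells. A filament is built from a type I and a type II keratin, and each kind of epithelium has its own pairs. At desmosomes, the spot junctions that hold epithelial cells together, cadherins of the Dsg (desmoglein) and Dsc (desmocollin) families bind across the gap between cells, the armadillo proteins Jup (plakoglobin) and Pkp (plakophilins) bind the cadherin tails, and plakins such as Dsp (desmoplakin) anchor the keratin filaments. In the eye these structures are best known from the epithelia of the cornea and conjunctiva. Photoreceptors, retinal neurons and Mueller glia are held together mainly by adherens junctions and carry other intermediate filaments.

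Values are taken as RPKM, that is, reads divided by the total of the library and by the length of the gene model, a unit inferred from the numbers themselves. The totals recovered were 28071917 reads in the eye library and 51944762 reads in the retina library, so that a gene of equal level had 1.85 times as many reads in retina. Reads given below for a gene are the smallest whole numbers that solve its values, and the true counts can be a multiple of them. Marker genes were read against the tissue labels. All 7 rod photoreceptor markers measured had their higher value in retina (summed value 15526 against 8026 in eye). The 5 lens markers measured summed to 64623 in eye and 437 in retina, and the 10 markers of corneal and conjunctival epithelium that are no members summed to 2344 and 4.06. In retina 2 of those 10, Ehf and Ly6d, were listed at 0. How far traces of such epithelium account for the low retina values of keratins was not tested.

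Nearly all members had their higher value in the eye library. Of the 36, 34 were higher in eye by some amount, against 50% of all genes above 0, and for these 34 the exact 95% interval of the ratio (counting error only) was above 1. Only Krt19 and Pkp2 had the higher value in retina, with intervals below 1. A gene was called when log2((eye + 0.1) / (retina + 0.1)) reached a fold of 2. Without any minimum value, 32 of the 36 were called higher in eye and 0 lower, where 18.3% and 7.80% of all genes were.

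A minimum value of 1 in either library left 34 members, without Krt17 and Dsg2. Of these 34, 30 were called higher in eye (17.8% of the 13259 genes tested) and 0 lower (7.95%). At a fold of 4 the counts were 28 and 0 (9.07% and 0.0905% of all tested). Their median log2 fold was 5.44, or 5.56 with genes at 0 in retina set at their lower bound, beside -0.01 over all tested genes. For 25 of the 34 only the eye value reached 1, so that the filter itself favoured a call in that direction. The 9 members with at least 1 in retina did not need their eye value to pass. Of those 9, 5 were called higher in eye (Krt15, Krt8, Krt18, Jup and Ppl) and 4 were not called (Krt10, Krt19, Pkp2 and Pkp4), while 10.6% of all genes with at least 1 in retina were called higher and 8.75% lower. A call of lower was hard to reach: of the 7 rod markers, 4 were called lower in eye and 3 were not called.

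**Figure D1:**
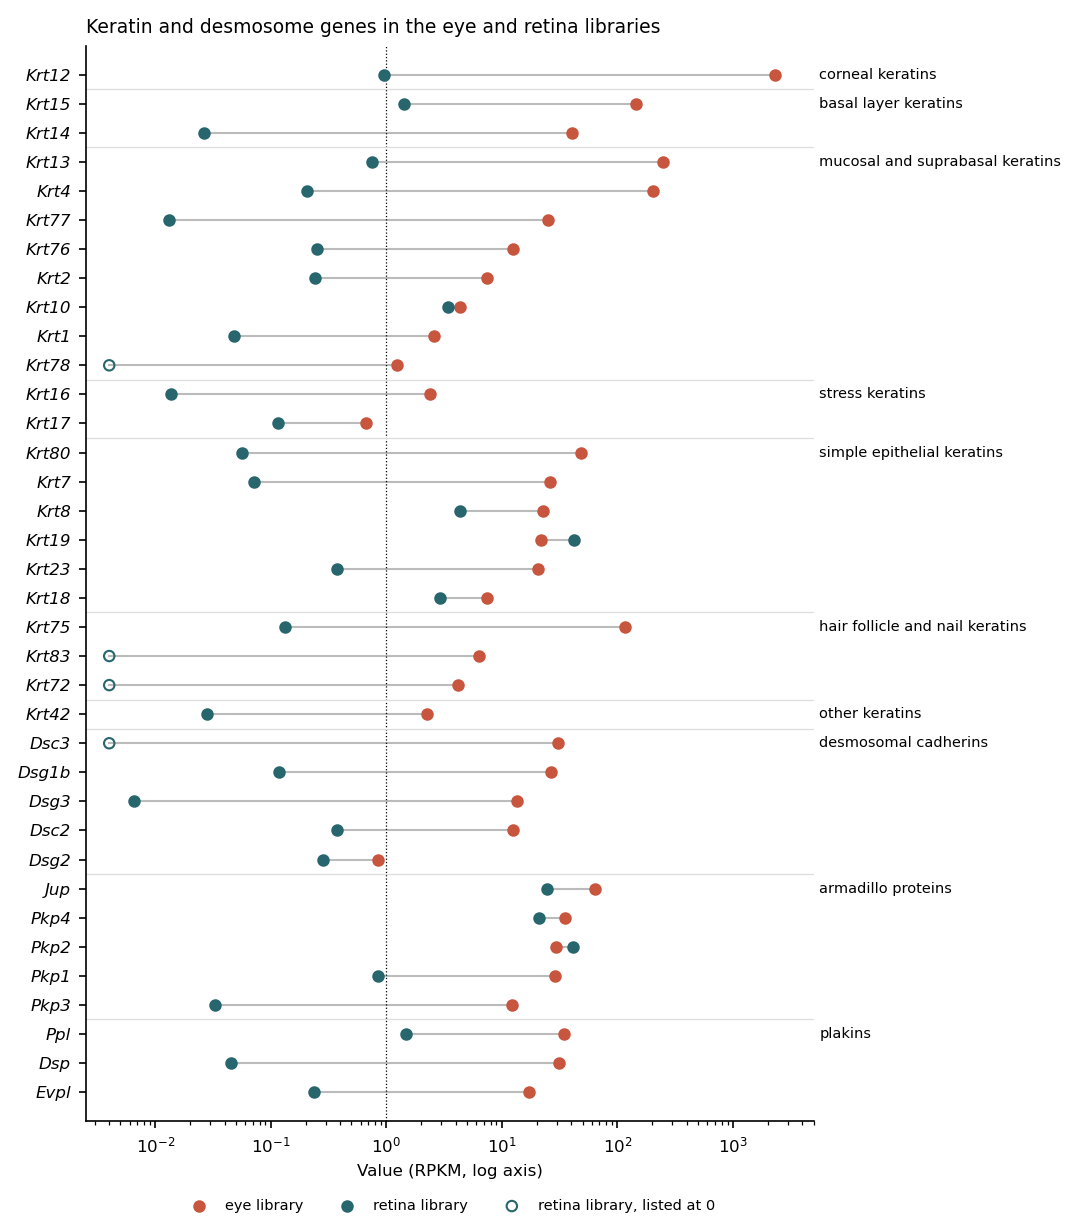
Value of each of the 36 members in the eye library (red) and the retina library (blue-green), in RPKM on a log axis, grouped by kind of protein. Each point is 1 library, lines join the values of a gene, open circles mark genes listed at 0, and the dotted line marks the minimum value of 1. The blue-green points lie left of the red ones except for Krt19 and Pkp2.

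Krt12, the type I keratin specific to corneal epithelium, was the most abundant member. It was at 2318 in eye, rank 13 of all genes, and at 0.955 in retina, rank 12110. The fold was 2428 (interval 1915 to 3127), from 89216 reads in eye and 68 in retina. Of the summed value of the 23 keratins analysed it held 70.6% in eye and 1.66% in retina. Within the eye library it was 9.41 times (interval 9.21 to 9.61) the level of Krt13, the next in order of the keratins analysed.

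The keratins of mucosal and suprabasal layers followed, with 7 of 8 called higher in eye (17.8% of all genes), of which all 7 were under 1 in retina. Krt13 and Krt4 form the type I and type II pair of non-cornified stratified epithelia such as conjunctiva. Krt13 was at 246 in eye and 0.745 in retina, 331-fold higher (interval 251 to 444). Krt4 was at 202 and 0.207, 975-fold higher (interval 600 to 1707). In eye these partners lay within a ratio of 1.22 (interval 1.18 to 1.26). Krt77 was at 25.1 in eye and, from 1 read, 0.0132 in retina, so that its 1899-fold difference had an interval from 340 to 75060.

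The epidermal keratins Krt1, Krt10 and Krt2 were low in eye beside Krt13 and Krt4. Krt1, the type II keratin of the upper epidermis, was at 2.59 in eye and 0.0480 in retina. Krt10, its type I partner, was at 4.37 and 3.41, a fold of 1.28 (interval 1.06 to 1.55) that was not called, and its direction turned when both libraries were scaled to equal sums. Krt2, another epidermal keratin, was at 7.46 and 0.243, and Krt76, a keratin of the palate, at 12.5 in eye from 568 reads with 21 reads in retina. Krt78 had a value of 1.24 in eye, from 14 reads, and was listed at 0 in retina, at least 8.64-fold higher in eye with 3 reads as the limit that a count of 0 allows. That bound leaves out the counting error of the eye reads, and the exact interval began at 6.14. Lor (loricrin), the only 1 of 6 listed markers of lid skin that was analysed, was at 0.306 and 0.243.

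Keratins of the basal cell layer were both called higher in eye (17.8% of all genes), Krt14 having passed the minimum through its eye value alone. Krt15, a type I keratin of basal and limbal cells, was at 145 in eye and 1.41 in retina, 103-fold higher (interval 85.3 to 126). Krt14, the type I partner of Krt5 in basal cells, was at 40.4 in eye and 0.0264 in retina, from 2 reads there, a fold of 1529 (interval 423 to 12639). Krt15 was thus 3.60 times (interval 3.41 to 3.80) the level of Krt14 in eye. Krt5 itself was not analysed here, nor were the Krt6 genes.

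The stress keratins, which appear in wounded and fast-dividing epithelium, were low in both libraries. Krt16 was at 2.41 in eye and 0.0138 in retina, from 1 read, 174-fold higher with an interval from 30.5 to 6942. Krt17 was at 0.662 and 0.115, below the minimum value. Krt14, Krt16 and Krt17 are close paralogs, so single values are uncertain where reads fit more than 1 of them; the sources used here do not say how those were counted.

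**Figure D2:**
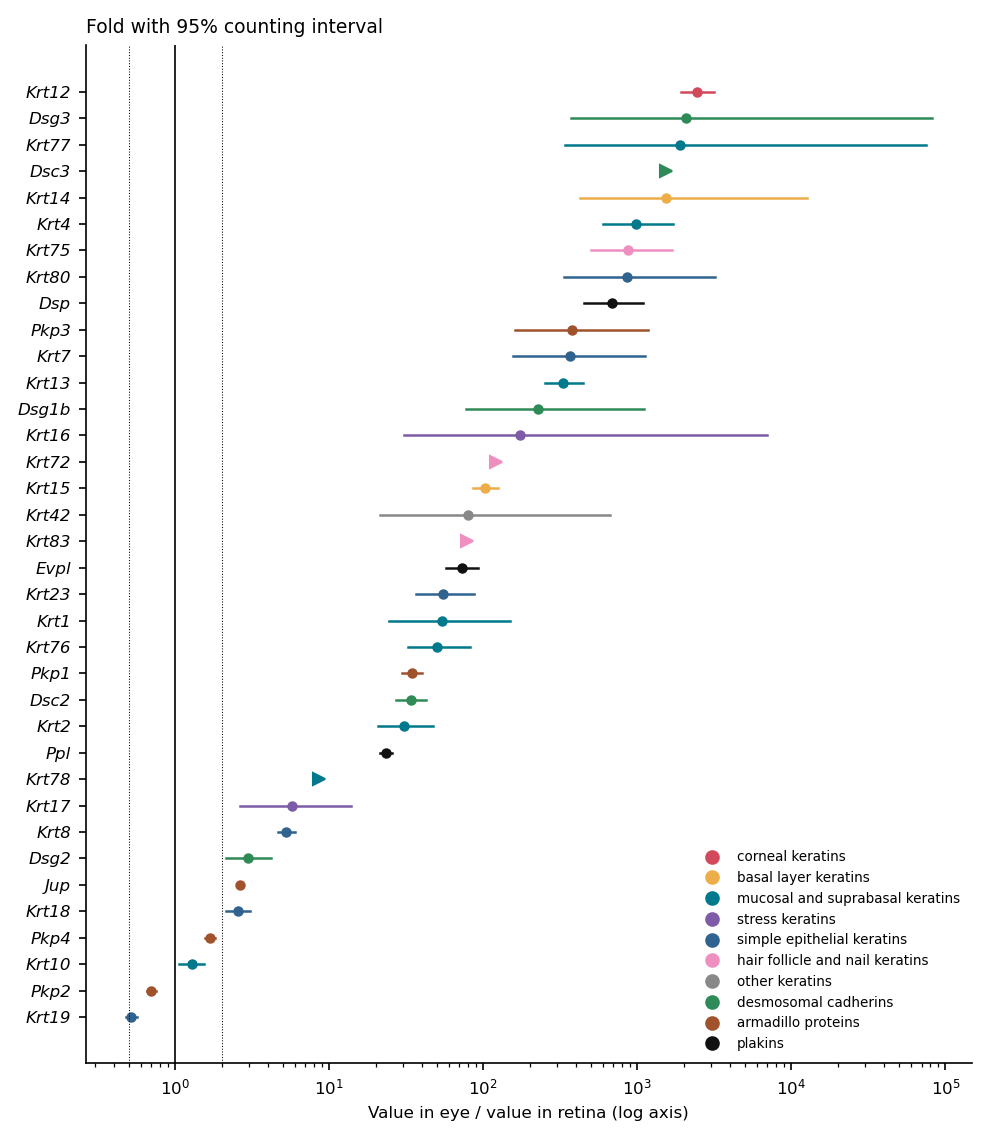
Fold of the eye over the retina value for the 36 members on a log axis, ordered by size and coloured by kind of protein. Points are ratios of values, bars are exact 95% intervals that cover counting error only, triangles are lower bounds for the 4 genes listed at 0 in retina, and dotted lines mark 2-fold differences. Only Krt19 and Pkp2 lie left of 1.

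Keratins of simple, single-layered epithelia were the most mixed of the keratin classes. Their 6 members summed to 148 in eye and 49.9 in retina, a ratio of 2.96, where the mucosal and suprabasal class had a ratio of 102. Krt19 alone gave 42.2 of the retina sum, so the class ratio rests largely on that gene. Krt80, counted in this class by the grouping used here, was at 48.9 in eye and 0.0567 in retina, 864-fold higher (interval 337 to 3173). Krt7, a type II keratin of ducts and of conjunctiva, was at 26.0 and 0.0712, 365-fold higher (interval 156 to 1127). Krt23 was at 20.6 and 0.374, 55.2-fold higher (interval 36.8 to 86.7). These 3 genes were near 0 in retina.

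Krt8 and Krt18, the founding pair of simple epithelia, also known from pigment epithelium, kept a measurable level in retina. Krt8 was at 22.8 in eye and 4.33 in retina, 5.27-fold higher (interval 4.66 to 5.96) from 1005 and 353 reads. Krt18 was at 7.44 and 2.91, 2.56-fold higher (interval 2.13 to 3.08), and was not called with equal summed values. The ratio of Krt8 to Krt18 was 3.07 in eye (interval 2.69 to 3.51) and 1.49 in retina (interval 1.25 to 1.78), intervals that do not overlap. Beside them, the 6 pigment epithelium markers summed to 1410 in eye and 455 in retina, a ratio of 3.10, and their part in these values was not tested. Ttr alone gave 932 and 211 of these sums, and the single markers differed. Ttr, Rgr, Rpe65 and Lrat were 3.69-fold to 8.18-fold higher in eye, while Rlbp1 was 1.10-fold higher in retina (interval 1.07 to 1.12) and not called. Best1 was below the minimum value, at 0.355 in eye and 0.470 in retina. Its eye over retina interval, 0.425 to 1.29, included 1, so no direction is shown. Krt18 has several processed copies in the rat reference, so that its value is uncertain.

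Krt19, a small type I keratin of simple and ductal epithelia, went the other way. It was at 22.0 in eye and 42.2 in retina, 1.92-fold higher in retina (interval 1.77 to 2.09) from 754 and 2681 reads. This falls short of a call with the values as deposited and was called lower in eye with equal summed values. The eye over retina ratio of Krt19, 0.520, lay within the range of the 7 rod markers, 0.464 to 0.715. Of those markers 3 were not called either, so a missed call does not set Krt19 apart from them. That range is not particular to rod genes. The intermediate filament genes Prph (0.521), Ina (0.547), Nefl (0.632) and Lmnb1 (0.663) lay in it too. Krt19 held 73.3% of the summed keratin value of the retina library, rank 1584 of all genes, and 0.668% in eye. In retina it was 9.75 times (interval 8.72 to 10.9) the level of Krt8, while in eye the ratio was 0.963 (interval 0.875 to 1.06) and the levels did not differ beyond counting error. None of the 10 markers of corneal and conjunctival epithelium had its higher value in retina, and which cells carried Krt19 there was not tested.

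**Figure D3:**
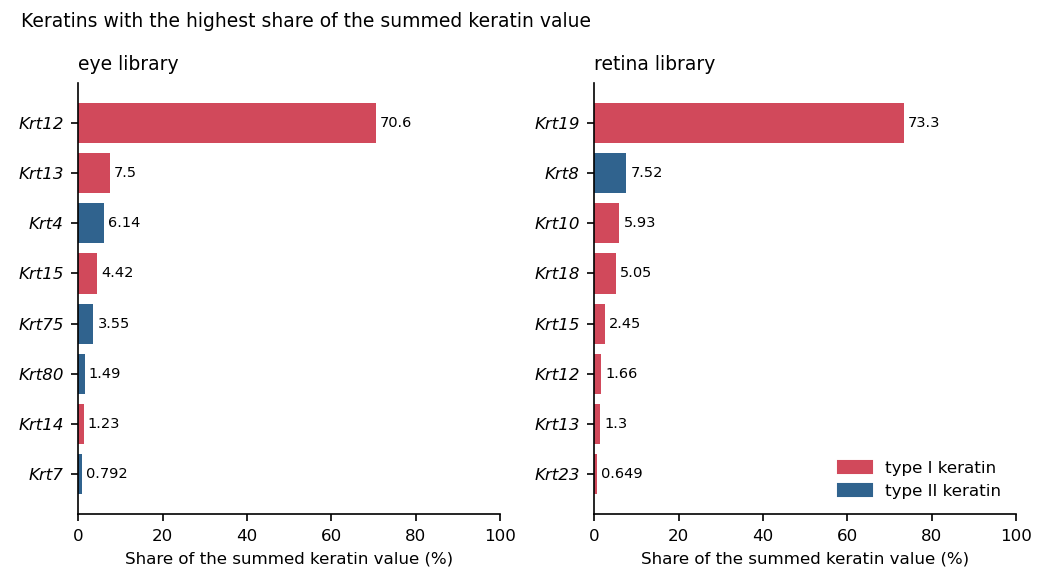
The 8 keratins with the highest share of the summed keratin value (percent, bars from 0) in the eye library (left) and the retina library (right), type I in red and type II in blue. Krt12 holds 70.6% in eye and Krt19 73.3% in retina, and each is a type I keratin.

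Keratins best known from hair follicle and nail were higher in eye in all 3 cases (17.8% of all genes), but all 3 passed the minimum through their eye value alone. Krt75, a type II keratin of the companion layer of the follicle, was at 117 in eye and 0.134 in retina, 871-fold higher (interval 498 to 1687). Among the 12 type II keratins analysed, which do not include Krt5, it was second in eye after Krt4. Krt83 was at 6.41 in eye but at 0 in retina, at least 78.3-fold higher against 3 reads (interval from 62.8). Krt72, a keratin of the inner root sheath, was at 4.19 and 0, at least 121-fold higher (interval from 97.4). The reference table gives Krt83 also as an older name of the gene Krt87, so the identity of that row is uncertain. Krt42, a type I keratin, was at 2.25 in eye and 0.0283 in retina, from 2 reads there.

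Summed by type, keratins were unevenly matched in both libraries. The 11 type I genes summed to 2810 in eye against 476 for the 12 type II genes, a ratio of 5.91, and to 52.2 against 5.35 in retina, a ratio of 9.75. In each library the excess rested largely on 1 gene. Without Krt12 the eye ratio was 1.03, and without Krt19 the retina ratio was 1.87. Sums of this kind lack Krt5 and the Krt6 genes, type II genes that were not analysed here.

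Gene order offers another view of Krt19. In the reference table (assembly GRCr8) the type I genes Krt13, Krt15 and Krt19 follow each other with no protein-coding gene between them, and Krt10 and Krt12 are neighbours likewise. Krt15 and Krt19, side by side, differed by 103-fold and 0.520-fold (eye over retina), and in retina Krt19 was 29.9 times (interval 24.7 to 36.5) the level of Krt15. Krt10 and Krt12, also side by side, differed by 1.28-fold and 2428-fold. In the type II cluster Krt77, Krt76 and Krt4, in a row, had folds of 1899, 50.05 and 975, all toward eye.

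The promoters of such neighbours are shown to let their sequence be compared, with that of Dsp as an example of a desmosome gene. Promoter sequences from RefSeq (GRCr8) matched 22 of the 36 members by symbol, 13 keratins and 9 desmosome genes. Given here are the 250 bases before the annotated start, 5′ to 3′ on the gene's strand, with TATAAA (the core of the TATA box) in capitals for the keratins and GGGCGG or its reverse complement CCGCCC (the GC box) for Dsp. Krt12 lies at chr10:84874266-84874515, Krt10 at chr10:84839161-84839410 and Dsp at chr17:26877122-26877371, all on the minus strand of GRCr8, whereas the expression values were made on the older build rn4.
Krt12: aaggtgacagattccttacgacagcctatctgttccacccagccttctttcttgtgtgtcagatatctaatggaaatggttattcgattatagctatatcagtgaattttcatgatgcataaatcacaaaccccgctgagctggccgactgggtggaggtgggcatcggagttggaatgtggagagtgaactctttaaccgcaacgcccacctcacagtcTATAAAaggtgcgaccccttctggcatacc
Krt10: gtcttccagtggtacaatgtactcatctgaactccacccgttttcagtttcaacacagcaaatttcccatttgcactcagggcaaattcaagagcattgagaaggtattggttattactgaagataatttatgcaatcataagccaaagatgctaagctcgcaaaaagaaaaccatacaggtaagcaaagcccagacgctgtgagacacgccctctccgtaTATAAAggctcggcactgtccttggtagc
Dsp: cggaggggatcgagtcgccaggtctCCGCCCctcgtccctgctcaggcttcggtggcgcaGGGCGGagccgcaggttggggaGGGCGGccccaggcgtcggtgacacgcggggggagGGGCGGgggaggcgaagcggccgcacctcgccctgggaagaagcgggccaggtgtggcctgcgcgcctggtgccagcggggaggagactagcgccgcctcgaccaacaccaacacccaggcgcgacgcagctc
The TATAAA match began 30 bases before the start in Krt12 and 29 bases in Krt10, although these neighbours differ widely in level and fold. Dsp had 4 GC box matches, between 225 and 133 bases before the start.

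Counted over the same window on both strands, TATAAA was found in 6 of 13 keratin promoters and 0 of 9 desmosome promoters, and in 12.9% of all 33469 promoters. GGGCGG was found in 3 of 13 and 8 of 9, and in 30.5% of all. CACCC was found in 7 and 9 (49.2% of all), and GGGTGG, whose reverse complement contains it, in 4 and 5 (26.1%). TTGCNNAA was found in 4 and 0 (9.22%), GGAATG in 2 and 0 (12.1%), and TGANTCA in 1 (Krt4) and 0 (6.34%). AACNGGTT, CCGGAAG and the paired half-site of the p53 family were found in 0 of either, with 1.76%, 7.27% and 0.362% of all promoters. A match describes these letters only and is not shown to be a site.

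**Figure D4:**
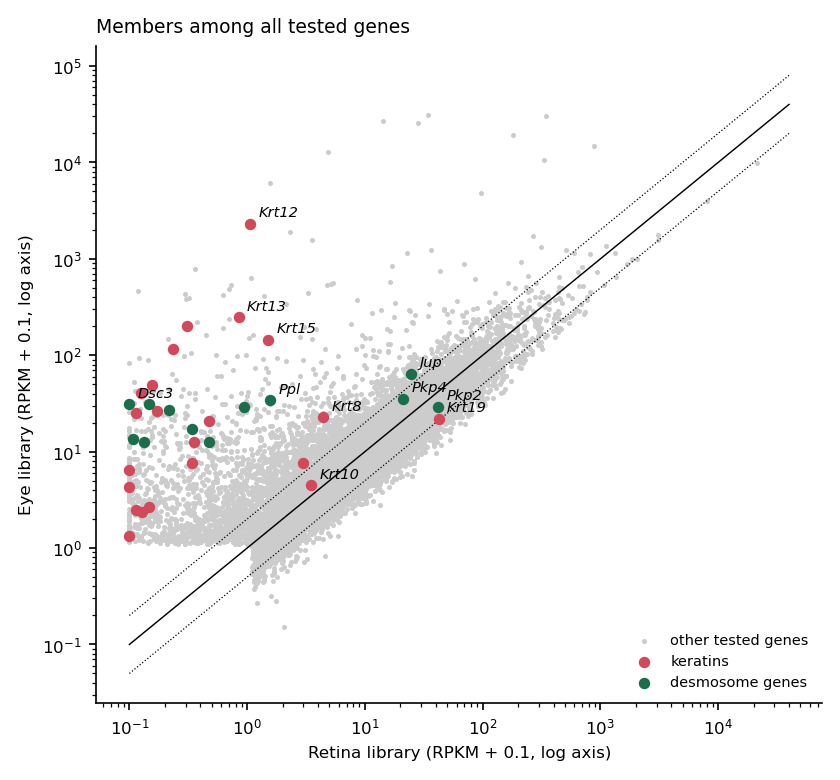
Eye against retina value (RPKM + 0.1, both axes log) for all 13259 genes tested (grey) with the 22 keratins (red) and 12 desmosome genes (green) tested. The solid line marks equal values and the dotted lines 2-fold differences. Most members lie at the left, far above the line, while Krt10, Krt19, Pkp2 and Pkp4 lie within the dotted lines.

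Desmosomal cadherins were near 0 in the retina library. Their 5 genes summed to 84.6 in eye and 0.780 in retina, a ratio of 108. Dsc3, a desmocollin of stratified epithelia, reached 30.9 in eye from 2497 reads but was listed at 0 in retina, at least 1540-fold higher against 3 reads, with an interval that began at 1252. Dsg1b, a desmoglein of the upper layers, was at 26.7 and 0.117, and Dsg3, the desmoglein of basal layers, at 13.6 and 0.00657, from 3 and 1 reads in retina. Their folds were 228 (interval 77.5 to 1112) and 2061 (interval 369 to 81492), which overlap.

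The cadherins that simple epithelia and heart also use were less far apart. Dsc2 was at 12.6 in eye and 0.373 in retina, 33.8-fold higher (interval 27.1 to 42.5). Dsg2, its usual partner in such cells, was below the minimum with 0.848 and 0.284, a ratio of 2.98 (interval 2.15 to 4.17). In eye Dsc3 was 2.46 times (interval 2.31 to 2.62) the level of Dsc2, and Dsg3, at 13.6, lay far above Dsg2. The isoforms of stratified epithelia were thus the more abundant within the eye library.

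Plakins were called higher in eye in 3 of 3 cases (17.8% of all genes), Dsp and Evpl having passed the minimum through their eye value alone. Dsp, which links the junction to keratin, was at 31.2 in eye and 0.0456 in retina, 684-fold higher (interval 452 to 1093) from 8138 and 22 reads. Evpl (envoplakin) was at 17.2 and 0.237, 72.4-fold higher (interval 57.5 to 92.3). Ppl (periplakin) was at 34.3 and 1.47, 23.4-fold higher (interval 21.3 to 25.7). Evpl and Ppl form dimers under the membrane of stratified epithelial cells, and in retina Ppl alone of the plakins exceeded a value of 1.

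Armadillo proteins divided into those near 0 in retina and those abundant there. Pkp1, the plakophilin of stratified epithelia, was at 28.9 in eye and 0.840 in retina, 34.3-fold higher (interval 29.8 to 39.8). Pkp3 was at 12.4 and 0.0327, 377-fold higher (interval 161 to 1165). Jup, which also binds classical cadherins in adherens junctions, was at 64.4 and 24.4, 2.64-fold higher (interval 2.54 to 2.75), and was not called with equal summed values. Pkp4, found mainly at adherens junctions, was at 35.3 and 21.0, a fold of 1.68 (interval 1.57 to 1.81) that was not called.

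Pkp2, the plakophilin of simple epithelia and heart, was the member besides Krt19 with its higher value in retina. It was at 29.3 in eye and 41.7 in retina, 1.43-fold higher in retina (interval 1.34 to 1.52), which was not called with the values as deposited and was called lower in eye with equal summed values. Its eye over retina ratio of 0.701 also lay within the range of the 7 rod markers, 0.464 to 0.715. That range is not particular to rod genes, as Lmnb1 (0.663) and Nefl (0.632) lay in it too. In eye Pkp2 and Pkp1 did not differ beyond counting error (ratio 1.01, interval 0.951 to 1.08), whereas in retina Pkp2 was 49.7 times (interval 43.1 to 57.5) the level of Pkp1. Against Dsp the ratio was 0.937 in eye (interval 0.883 to 0.994) and 914 in retina (interval 603 to 1461). Pkp2, Jup and Pkp4 together held most of the summed desmosome value in retina, with 46.1%, 26.9% and 23.2%, against 8.67%, 19.1% and 10.5% in eye.

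Within the eye library the desmosome genes lay close together. Apart from Dsg2 their values ran from 12.4 (Pkp3) to 64.4 (Jup), with a median of 28.9 over all 13. In retina they ran from 0 to 41.7, with a median of 0.284. Keratins were spread more widely in eye, from 0.662 (Krt17) to 2318 (Krt12).

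Lists of related genes were set beside the members. Of 10 tested desmosome and cornified envelope accessories, 10 were higher in eye (17.8% of all genes), but only St14 and Sbsn had at least 1 in retina, and the other 8 passed the minimum through their eye value alone. The most abundant was Perp, a membrane protein of desmosomes, at 161 in eye and 0.350 in retina, 459-fold higher (interval 328 to 664). Sprr1a and Scel, of the cell envelope, were at 41.4 and 15.6 in eye and 0.0474 and 0.0800 in retina. Of other genes of cornification, Spink5 was at 14.2 in eye and 0 in retina, Sbsn at 6.69 and 1.41, Tgm1 at 4.79 and 0.412, and Cnfn at 4.71 and 0.0515. Ivl (involucrin), Lor and Tgm5 were under 1 in both libraries.

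Hemidesmosomes anchor keratin to the basement membrane, and their list was mixed, with 4 of 7 tested genes higher in eye, 1 lower and 2 not called (17.8% and 7.95% of all genes were higher and lower). Col17a1, their transmembrane collagen, was at 44.2 in eye and 0.118 in retina, 374-fold higher (interval 253 to 579). Cd151 was at 71.2 and 39.7 and not called. Lamb3, a laminin chain, was lower in eye, at 5.51 against 25.1. Plec, the plakin of hemidesmosomes also present in muscle and other tissues, was 2.66-fold higher in eye (interval 2.51 to 2.82).

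Of 13 adherens junction genes, 3 were higher in eye, near the 17.8% of all tested genes, 0 were lower and 10 were not called, with a median log2 fold of 0.23. All 13 had at least 1 in retina. The most abundant were Ctnnb1 (beta-catenin), at 141 in eye and 158 in retina, Ctnna1 (alpha-catenin), at 52.4 and 32.0, and Cdh2 (N-cadherin), at 37.0 and 35.9. The 3 that were higher were Cdh1 (E-cadherin), Cdh3 (P-cadherin) and Cdh5, the cadherin of endothelium, by 3.59-fold, 3.07-fold and 4.62-fold. Ctnnd1, the armadillo relative of the plakophilins that binds classical cadherins, was at 23.5 and 14.0 and not called.

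Of 15 intermediate filament genes other than keratins, 7 were higher in eye (17.8% of all genes), 1 was lower (Lmnb2, where 7.95% of all genes were) and 7 were not called, with a median log2 fold of 0.80. Bfsp1, which forms the beaded filaments of the lens, had values of 1576 in eye and 3.46 in retina. Vim (vimentin) was at 499 and 187, 2.67-fold higher, and Nefl, a neurofilament subunit, at 46.1 and 72.9. The summed value of this list in retina was 517, against 57.5 for the 23 keratins, whereas in eye the sums were 2366 and 3286. Krt19 at 42.2 was in retina near the level of the neurofilament genes Nefh (43.1) and Nefm (40.5).

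Of 5 tested genes that bind or turn over keratin, 1 was higher in eye (Trim29, at 64.3 and 0.129), a share near the 17.8% of all genes, 0 were lower and 4 were not called. Of 13 regulators of epithelial keratin genes, 12 were higher in eye (17.8% of all genes), 0 lower and 1 not called. Only 4 of the 13 had at least 1 in retina, and the other 9 passed the minimum through their eye value alone. Pax6, which also acts in retina, was the one not called, at 96.7 in eye and 111 in retina. Elf3, an Ets factor of epithelia, was at 55.9 and 0.148, 378-fold higher (interval 229 to 676), and Klf4 at 30.9 and 0.943, 32.7-fold higher (interval 27.1 to 39.8). Tp63, the regulator of basal keratinocytes, was at 3.81 in eye and 0.00380 in retina, from 1 read there.

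**Figure D5:**
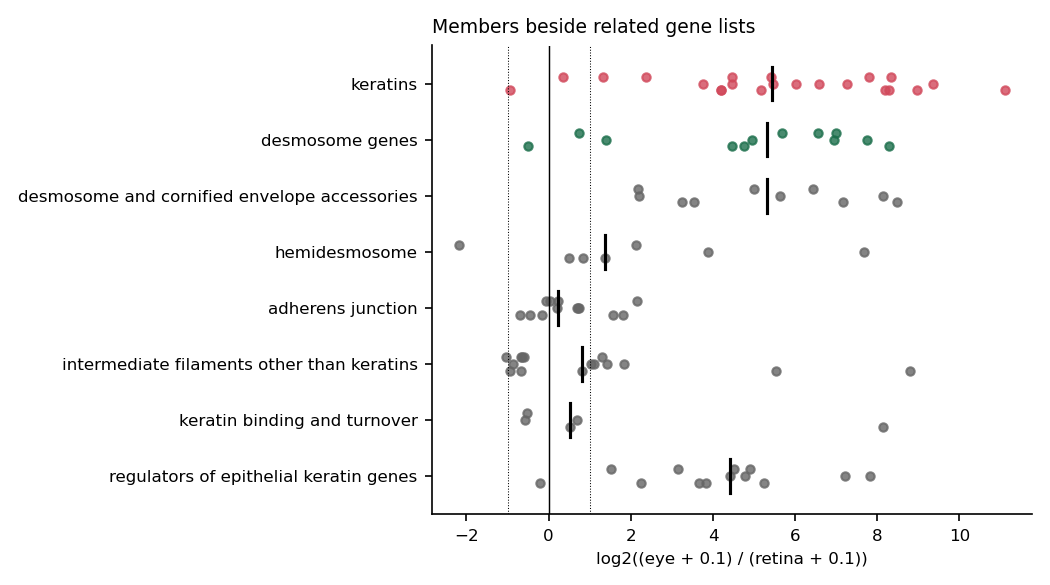
log2((eye + 0.1) / (retina + 0.1)) of the tested keratins (red), desmosome genes (green) and members of 6 related lists (grey), with a black bar at each median. The solid line marks equal values and the dotted lines 2-fold differences. Adherens junction genes centre near 0 (median 0.23), while keratins and desmosome genes centre at 5.44 and 5.31.

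In these libraries a lower value can stand for fewer cells of a type or for less RNA of the gene per cell, and these cannot be told apart. A change of scaling moves every gene by the same factor. Totals without lens genes shifted the log2 ratio by 0.20 and changed no call among members, while equal summed values shifted it by -0.64 and left 27 members higher and 2 lower in eye.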

How the data were processed

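RNA sequencing values were analysed for eye and retina of Long Evans rats, grouped by the tissue in the sample titles. Per the submitters' processing notes, GSNAP, HTSeq and the rat build rn4 were used, while their versions, the annotation, strand use and any joining of technical replicates are unstated there. The deposited values carry no unit and are taken as RPKM, because in both libraries they equal whole reads over a whole length and a shared total. Totals, lengths and reads were recovered by search (Python 3.11.15, numpy 2.4.6, scipy 1.17.1). Whole reads were found for 13988 of 13991 genes searched and for all 36 members. Reads are the smallest that solve the values, which by itself can only make the intervals too wide. Reads that are not independent would make them too narrow, and spread between pools is not covered. The search was tested on simulated data.

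Each file had 14533 rows, of which 7 marked ND were dropped, and of 41 names on several rows the row with more decimals was kept. The 390 names printed with at most 2 decimals were kept without reads, and no member is among them. The fold added 0.1 to each value, which understates changes of low genes. Named folds are ratios of values without it. Intervals are Clopper-Pearson at 95% and cover counting error only, as reads lacking molecular identifiers need not be independent. Shares of summed values have no interval. Synonyms in the reference table served to find listed genes under older symbols.

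The members and lists were chosen with earlier results of these data known. Named genes were, by rule, the 3 most abundant of each class, members not called, higher in retina or at 0, and the 5 largest and 5 smallest folds, plus the 3 most abundant of each related list. Further genes were named after their values were seen. Motifs and promoters shown were likewise chosen then. The alternatives were other added values, minimum values and fold, 4 other scalings, and leaving out rows of few decimals.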

Additional observations from a re-analysis of the deposited data

How the results depend on the processing

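Among the 34 tested members, wherever they passed the minimum of an alternative, the direction changed for Krt10 alone, not called, whose log2 fold of 0.35 became -0.27 with equal summed values. The number of members higher in eye, 30 as reported, was 27 with equal summed values, 25 with a minimum value of 5, and 28 where a fold of 4 was asked. The number lower, 0, became 2 with equal summed values (Krt19 at a log2 fold of -1.58 and Pkp2 at -1.15), and stayed 0 in the other alternatives. Jup and Krt18 were not called with equal summed values (0.76 and 0.70) or at a fold of 4. The median log2 fold of tested members, 5.44, was 3.77 with 1 added, 6.67 with 0.01 added, 6.29 with a minimum of 5 (28 members left) and 4.81 with equal summed values. A larger added value shrinks the fold of genes near 0 by construction. Totals without lens genes, a trimmed mean, a median of ratios and leaving out rows of few decimals changed no call among members.

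No paired analysis was possible because 1 column of values per tissue was analysed, so replicate numbers in the labels pair no columns. For the same reason no replicate was left out. Depth limits the upper end of folds: by the smallest reads that solve the values, 6 members had 1 to 3 reads in retina and 4 had 0. Where the true counts are a multiple of these, the limit is less strict. Differences between tissues beyond these pools were not tested.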

Other observations

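A type II keratin stands outside the symbol rule under the older name Kb15, which the reference table gives as a synonym of Krt90, the neighbour of Krt75. It was singled out after its value was seen. Kb15 was at 23.9 in eye and 0.111 in retina, from 931 and 8 reads, and was called higher in eye. Krtcap2, whose symbol resembles those of keratins but which encodes a subunit of the enzyme that adds sugar chains to proteins, had values of 19.5 (eye) and 14.0 (retina) and was not called.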
